A study of Mus musculus with 24 samples.

Results

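The Hox genes are the 39 protein-coding members of the Hoxa, Hoxb, Hoxc and Hoxd families with paralog numbers 1 to 13, and they were followed here in tissue macrophages taken from the head and from the trunk. All 39 were found by symbol among the 41388 genes of the count table, 40254 of which had a symbol. No measured value was used to choose them. Hox genes code for homeodomain transcription factors that lie in 4 clusters. Along each cluster, genes at the 3′ end (low paralog numbers) are used in the hindbrain and neck of the embryo, and genes at the 5′ end (high numbers) in the tail, limb ends and urogenital tract. Fibroblasts and other connective tissue cells keep much of this positional code in the adult, cells of the anterior head largely lack it, and blood progenitors use a set of Hox genes of their own that falls as they mature.

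The macrophages were sorted in bulk from wild-type C57BL/6 mice aged 17 weeks at steady state, from the diaphragm, the muscle sheet below the chest, and from the dura mater, the tough membrane under the skull. The labels give 9 dural and 15 diaphragm samples in 3 subsets per tissue, C1, C2 and C3, whose markers are not stated in them, and the text on the series mentions RAG-1 deficient animals reconstituted with T cells, which no sample label names. The columns of the table name the tissue, and for dura also 1 of 3 marks (P4, P5 or P6) and 1 of the numbers 1, 3 and 4, but no subset, so that dura was compared with diaphragm and the 3 dural marks with each other by name. Diaphragm columns carry a number only, and columns of the same number were summed as repeat runs of 1 library.

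This left 9 dural libraries with 10457920 to 24077834 counts and 7 diaphragm libraries with 11053351 to 30132295 counts. The diaphragm libraries are given as numbers 1 and 7, numbers 2 and 8, and numbers 3, 6 and 9. Numbers 4 and 5, with 2115 and 1496 counts, were left out and held no Hox counts. Whether samples came from separate animals is not in the labels, so a p-value reflects the spread among libraries alone. A batch that followed the tissues and the tissue itself cannot be told apart. The 11 macrophage genes of a fixed list summed to 20140 to 29240 CPM (counts per 1000000 counts of the library, with TMM factors) over the 16 libraries. Diaphragm libraries 1 and 7 stood apart from the rest by their connective tissue and endothelial genes, and results are given with and without them. In bulk samples, fewer cells of a type and less RNA per cell cannot be told apart.

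Hox RNA was scarce in both tissues, and most of what was present in dura came from 1 gene, Hoxb4. Of the 39 genes, 6 had no count in any library (Hoxa11, Hoxc9, Hoxc11, Hoxc13, Hoxd3 and Hoxd13), 12 had a few counts but never 10 in a library, and 21 reached at least 10 counts in 1 library or more. The 39 genes together had 1199 counts in dura and 3718 in diaphragm, and 61.5% of the diaphragm counts came from libraries 1 and 7. A gene without a count in any dural library had at most 0.0233 CPM over the 9 libraries, the level of 3 counts, and one without a count in diaphragm at most 0.0189 CPM over the 7. Reads without molecular identifiers can be copies of 1 molecule, so these limits cover counting error only.

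The promoters of the pair of genes that the results turn on are shown because Hoxb4 was the member counted in every library and Hoxa5 the member with the most counts among those called between the tissues. The sequences are the 250 bases before the RefSeq start of each gene on GRCm38.p6, 5′ to 3′ on the strand of the gene. Capitals mark AGGTCA, the half-site of retinoic acid receptors, and CCAAT, the box bound by NF-Y, each searched on both strands and here found as the reverse complement.
Hoxb4: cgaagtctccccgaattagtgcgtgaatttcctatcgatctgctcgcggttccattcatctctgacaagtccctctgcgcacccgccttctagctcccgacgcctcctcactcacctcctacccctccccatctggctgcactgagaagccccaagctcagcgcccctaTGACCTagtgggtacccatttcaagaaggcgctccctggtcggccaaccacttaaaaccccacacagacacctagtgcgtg
Hoxa5: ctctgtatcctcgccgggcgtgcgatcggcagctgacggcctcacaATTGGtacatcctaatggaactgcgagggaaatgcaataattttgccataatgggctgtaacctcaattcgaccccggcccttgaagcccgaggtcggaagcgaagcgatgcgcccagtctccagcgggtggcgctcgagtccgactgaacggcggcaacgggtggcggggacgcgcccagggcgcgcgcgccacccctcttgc
The Hoxb4 stretch lies at chr11:96318017-96318266 on the plus strand, with 58.0% GC, 14 CpG sites and the half-site 81 bases before the start. The Hoxa5 stretch lies at chr6:52204588-52204837 on the minus strand, with 63.6% GC, 28 CpG sites and the box 204 bases before the start. In windows of 250 bases before to 50 after the start, AGGTCA was found in 29.2% of the 24 promoters of 22 Hox genes in the table and in 16.3% of all 32851 promoters, and CCAAT in 62.5% and 37.4%. In this longer window Hoxa5 also had 1 AGGTCA match, which its printed stretch does not hold in full. The median GC content of the Hox promoters was 57.7%, against 52.7% of all promoters. These matches describe letters and no binding was measured.

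Hoxb4 (ENSMUSG00000038692, GRCm38 chromosome 11, 96318267 to 96321638, plus strand) is known for expanding blood stem cells when given in excess. It was counted in all 16 libraries and shares no exon with another annotated gene. Its level in dura was 4.51, 4.19 and 3.43 CPM in libraries 1P4, 3P4 and 4P4, 8.04, 5.47 and 6.11 CPM in 1P5, 3P5 and 4P5, and 9.55, 6.39 and 7.86 CPM in 1P6, 3P6 and 4P6. In diaphragm it was 11.3 and 6.26 CPM in libraries 1 and 7, 6.33 and 4.19 CPM in 2 and 8, and 5.83, 7.32 and 3.24 CPM in 3, 6 and 9. The ranges of the tissues covered each other almost completely, with library 1 of the diaphragm highest and library 9 lowest. The means were 6.17 ± 2.01 CPM (SD, n = 9) in dura and 6.35 ± 2.57 CPM (n = 7) in diaphragm, and without libraries 1 and 7 the diaphragm mean was 5.38 ± 1.65 CPM (n = 5). The fitted difference, dura minus diaphragm, was -0.04 ± 0.27 on the log2 scale (SE, edgeR quasi-likelihood test, adjusted p = 0.928), and its sign turned with library totals in place of TMM factors (0.06) and without libraries 1 and 7 (0.20). As a share of all Hox counts Hoxb4 made up 59.6% to 80.1% in the dural libraries and 16.02% to 56.7% in those of diaphragm, so that no dural library fell in the diaphragm range.

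**Figure D1:**
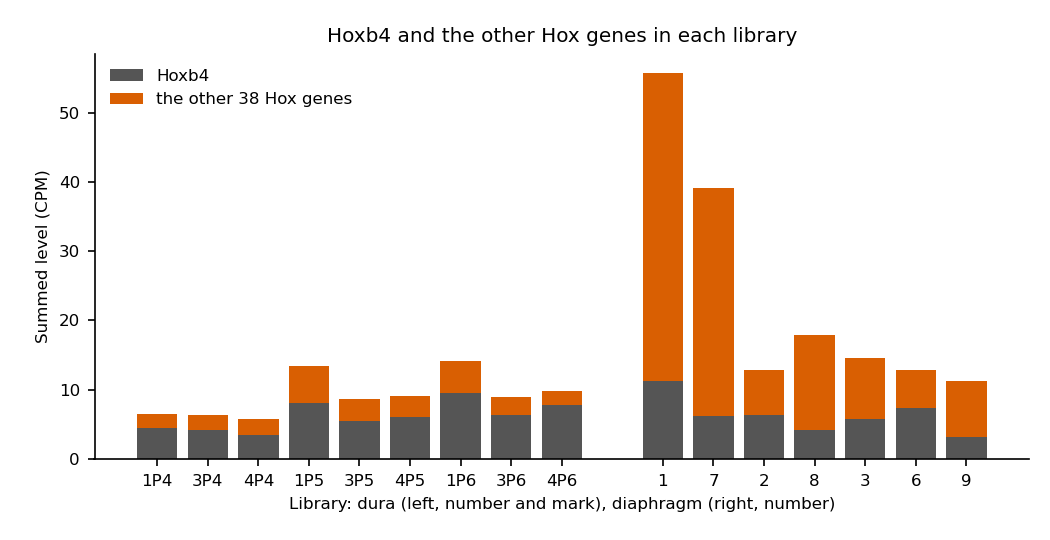
Summed Hox level in each library in CPM, with Hoxb4 in grey and the other 38 Hox genes stacked on it in orange, dura on the left and diaphragm on the right. The grey parts overlap between the tissues, the orange parts reach at most 5.33 CPM in dura and at least 5.59 CPM in diaphragm (5.42 and 4.98 CPM, and so an overlap, with library totals), and libraries 1 and 7 stand highest with 44.4 and 32.8 CPM.

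Within dura, Hoxb4 was lowest under the mark P4, and every P4 library lay below every library marked P5 or P6. The P5 level exceeded the P4 level by 0.70 and the P6 level by 0.98 on the log2 scale (edgeR F test over the 3 marks, adjusted p = 0.0432), in a comparison that called 29.8% of 13239 genes. The call did not hold with library totals (adjusted p = 0.086), without the filter on low counts (adjusted p = 0.122, with 20.2% of genes called) or in 8 of the 9 fits that left out 1 library (adjusted p 0.0451 to 0.136 over the 9). P4 libraries also had 2611 to 4569 CPM of 14 fibroblast genes, against 749 to 1220 CPM in the other dural libraries, and the part of this in the difference was not tested. The labels do not explain the marks.

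The other 38 Hox genes were higher in diaphragm as a sum and in most single genes. Their sum was 1.95 to 5.33 CPM over the 9 dural libraries (median 2.57). In diaphragm it was 44.4 and 32.8 CPM in libraries 1 and 7, 6.56 and 13.7 CPM in 2 and 8, and 8.67, 5.59 and 7.94 CPM in 3, 6 and 9. The lowest diaphragm library stood just above the highest dural one, but with library totals in place of TMM factors diaphragm library 6 fell to 4.98 CPM, below the 5.42 CPM of 1P5, and the tissues overlapped. The diaphragm mean was 17.1 ± 15.3 CPM (n = 7) with libraries 1 and 7 and 8.48 ± 3.13 CPM (n = 5) without them, against 3.001 ± 1.202 CPM (n = 9) in dura. Of the 21 genes with 10 counts in a library, 20 had the higher mean in diaphragm, and 18 were highest in libraries 1 and 7 among the 3 diaphragm sets. Diaphragm libraries were deeper (median 23498989 counts against 12765528 in dura), so a gene high there reached 10 counts more easily. The 20 of 21 thus depends in part on how the 21 were chosen. Over all 33 Hox genes with a count, 25 had the higher mean in diaphragm and 8 in dura. Without those libraries 17 of the 21 were higher in diaphragm, and Hoxb2, Hoxb4, Hoxb7 and Hoxc4 were higher in dura. No single Hox gene separated all dural from all diaphragm libraries, which 2.5% of the 24508 genes with a count did with the higher level in diaphragm and 1.43% with the higher level in dura.

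**Figure D2:**
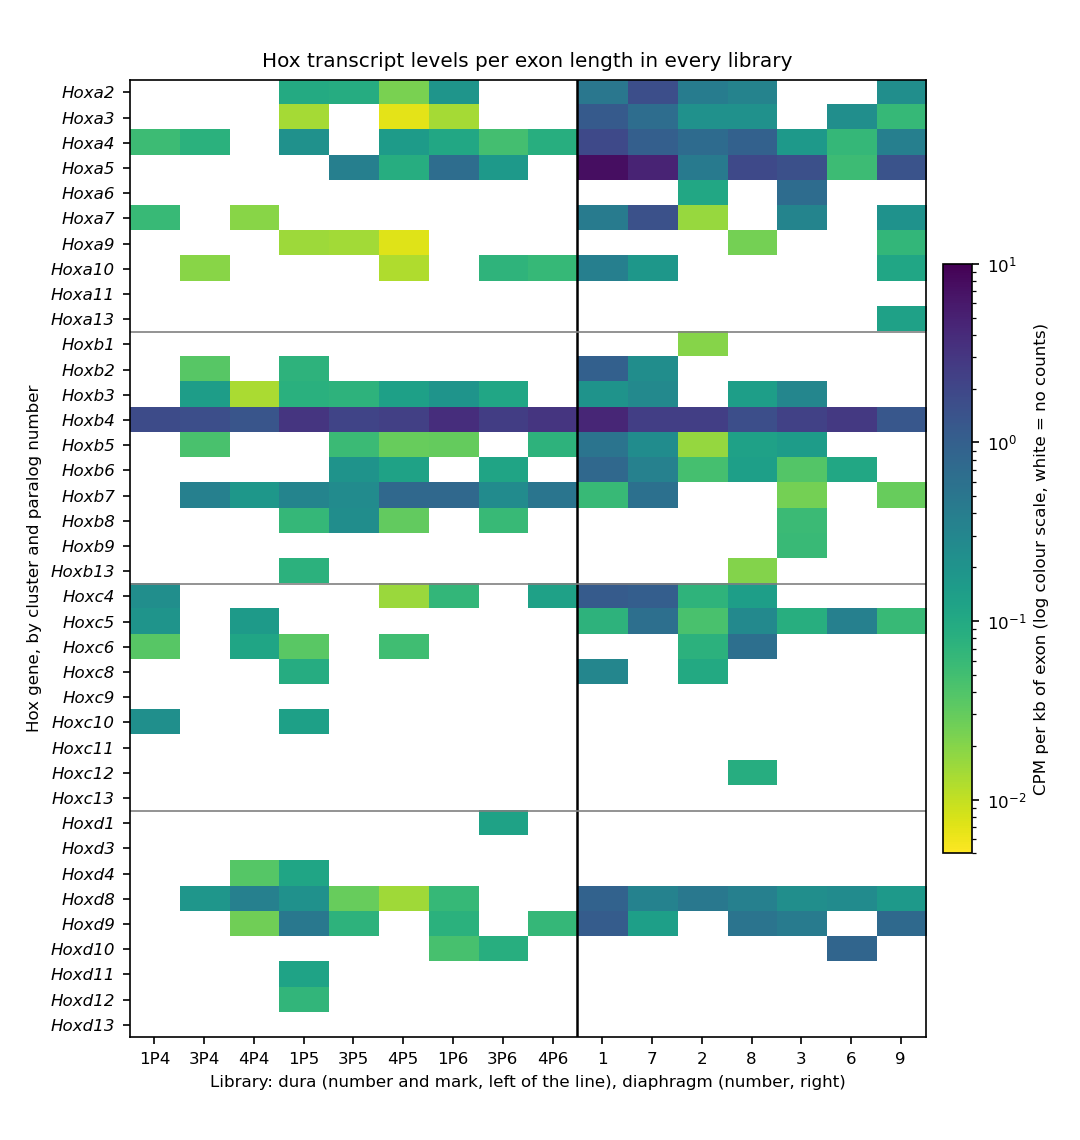
Level of 38 of the 39 Hox genes (rows, by cluster and paralog number) in each of the 16 libraries (columns, dura left and diaphragm right of the line), in CPM per kb of exon on a log colour scale, white for no counts. Hoxb4 is filled in every column, while the Hoxa rows are filled mainly on the diaphragm side and reach their highest level in Hoxa5 of libraries 1 and 7.

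Among the anterior genes, Hoxa3 had the largest fold change. Hoxa3 (chromosome 6, 52169062 to 52213336, minus strand) is needed for the thymus, parathyroid and other derivatives of the pharyngeal arches. It had 3 counts in all 9 dural libraries together, 1 each in 1P5, 4P5 and 1P6, and 0.0846 CPM at most. Diaphragm libraries 1 and 7 had 7.04 and 3.94 CPM, with 1.29 and 1.27 CPM in 2 and 8, and 0, 1.42 and 0.365 CPM in 3, 6 and 9. Thus 6 of 7 diaphragm libraries lay above all of dura and library 3 had no count. Its exons share 27.1% of their length with other annotated transcripts, mostly on the opposite strand, and the unstranded kit cannot tell these reads apart. Hoxa2, which sets the identity of the second pharyngeal arch, reached 2.87 CPM in diaphragm library 7 and at most 0.335 CPM in dura. Hoxb2, a hindbrain gene as well, had 74 and 23 counts in diaphragm libraries 1 and 7 and none in the other 5, and Hoxb1 had 1 count in all. Hoxb3 was spread over both tissues, at 0 to 0.837 CPM in dura and 0 to 1.31 CPM in diaphragm, with 52.9% of its exon length opposite an antisense transcript.

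After Hoxb4, Hoxa5 had the most counts of the Hox genes in diaphragm. Hoxa5 (ENSMUSG00000038253, chromosome 6, 52201754 to 52204587, minus strand) patterns the neck vertebrae and the respiratory tract, and the Hox5 genes are needed in the motor neurons of the phrenic nerve, which supplies the diaphragm. Diaphragm libraries 1 and 7 had 14.2 and 8.90 CPM of it, with 0.832 and 3.50 CPM in 2 and 8, and 2.95, 0.102 and 2.65 CPM in 3, 6 and 9. In dura it was at 0 in all 3 P4 libraries, 0, 0.713 and 0.163 CPM in 1P5, 3P5 and 4P5, and 1.26, 0.312 and 0 CPM in 1P6, 3P6 and 4P6. Diaphragm libraries 6, with 1 count, and 2 lay within the dural range, and the other 5 were higher than all of dura. Hoxa5 had 555 of its 788 diaphragm counts in libraries 1 and 7. The fold change, dura minus diaphragm, was -4.14 ± 1.05 on the log2 scale (edgeR, adjusted p = 0.00776), and without libraries 1 and 7 it was -2.92 ± 1.06 (adjusted p = 0.0472, with 31.2% of all genes called). It was one of only 2 Hox genes that passed the filter on low counts, the other being Hoxb4, and it passed through the tissue where it is high, with 10 or more counts in 6 diaphragm libraries and 1 dural library. In this comparison 26.4% of 13136 genes were called, 15.3% as lower in dura.

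A fit without the filter reached all 33 Hox genes with a count and called 4, all lower in dura, where 8.43% of 24508 genes were called lower and 6.39% higher. All 4 belong to the Hoxa cluster on chromosome 6, namely Hoxa3 with -6.21 ± 1.08, Hoxa4 with -3.09 ± 0.82, Hoxa5 with -4.13 ± 1.03 and Hoxa7 with -5.07 ± 1.30 on the log2 scale (edgeR, adjusted p = 0.000578, 0.0147, 0.0101 and 0.0116). At an unadjusted p under 0.05 (edgeR), 11 Hox genes were lower and 4 higher in dura, where 35% of all genes passed in either direction. Several of them rest on few counts. The 4 were Hoxc10, Hoxd1, Hoxd4 and Hoxd11, with 8, 3, 6 and 6 dural counts in at most 2 libraries each. The 11 included Hoxa13 and Hoxb9, with 7 and 4 counts, each in 1 diaphragm library. Without libraries 1 and 7 and without the filter, Hoxa3 was still called (edgeR, -4.86 ± 1.13, adjusted p = 0.00618, with 9.31% of genes called lower), whereas Hoxa4 (adjusted p = 0.0765), Hoxa5 (0.076) and Hoxa7 (0.0861) were not, in a fit that called 17.3% of genes. With the dural libraries summed per number, which leaves 3 dural values, no Hox gene was called among 11 tested (edgeR, 8.39% of all genes called). In that fit Hoxa3 had an adjusted p of 0.0615 and Hoxa5 of 0.0813 (edgeR).

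Hoxa4, which patterns neck vertebrae, had 2.996 and 1.58 CPM in libraries 1 and 7, 1.11 and 1.502 CPM in 2 and 8, and 0.262, 0.102 and 0.594 CPM in 3, 6 and 9, against 0 to 0.338 CPM in dura (median 0.125). Libraries 3 and 6 thus fell within the dural range. Hoxa7, a gene of the chest level, had 1.23 and 4.34 CPM in libraries 1 and 7 and 0.935 and 0.594 CPM in 3 and 9, but no count in libraries 8 and 6 and 1 count in library 2. Dura had 3 counts of Hoxa7, 2 in 1P4 and 1 in 4P4. Hoxa6, between them on the cluster, had 16 counts in diaphragm library 3, 2 in library 2 and none elsewhere, and was at least 4.85-fold higher in diaphragm than the limit of 3 counts over dura. Hoxa9, a gene of blood progenitors that drives leukaemia when in excess, had 11 counts in diaphragm and 3 in dura.

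Hoxb7 was the exception among the 21, with more RNA in dura. It was at 0, 0.563 and 0.277 CPM in 1P4, 3P4 and 4P4, 0.508, 0.396 and 1.18 CPM in 1P5, 3P5 and 4P5, and 1.17, 0.390 and 0.806 CPM in 1P6, 3P6 and 4P6. In diaphragm library 7 had 0.920 CPM, library 1 had 0.0908 CPM, and the other 5 had 2 counts in all. So 8 of 9 dural libraries lay above 6 of 7 diaphragm libraries, with 1P4 and library 7 as exceptions. The fold change without the filter was 1.84 ± 1.08 (edgeR, adjusted p = 0.233), and without libraries 1 and 7 it was 4.54 ± 1.16 (adjusted p = 0.0111), where 8.02% of genes were called higher. Its neighbours Hoxb5 and Hoxb6 had the higher mean in diaphragm, 0.431 and 0.406 CPM, against 0.0723 and 0.0971 CPM in dura, and neither passed the adjusted test. Hoxb8, known from a class of microglia and from blood progenitors, had 14 counts in dura, in 4 libraries, and 4 in diaphragm.

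In the Hoxc cluster, Hoxc4 had 63 and 71 counts in diaphragm libraries 1 and 7 and 12 in the other 5, against 15 in dura. Hoxc5 was counted in all 7 diaphragm libraries, at 0.139 to 1.91 CPM, and in 2 dural libraries, 1P4 and 4P4, at 0.607 and 0.498 CPM. Hoxc6 was counted mainly in diaphragm library 8, with 33 counts, and Hoxc8 in library 1, with 19. In the Hoxd cluster, Hoxd8 was counted in all 7 diaphragm libraries, at 0.457 to 2.497 CPM (median 0.957), and in 6 of 9 dural libraries, at up to 0.997 CPM in 4P4. It was called lower in dura in the fit without the P4 libraries (edgeR, adjusted p = 0.0324, with 19% of all genes called), but not without P5 (0.204), without P6 (0.18), without the filter (0.122) or with dural libraries summed per number (0.14). Hoxd9, which acts at the lumbar level and in the limb, was at 2.32 CPM in library 1, 1.60 CPM in library 9 and 0 in libraries 2 and 6, against at most 1.02 CPM in dura.

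The genes of the tail end of the clusters were nearly silent. Hoxa10 had 51 counts in diaphragm, 43 of them in libraries 1 and 7, and 8 in dura, and Hoxd10 had 15 in diaphragm library 6 and 3 in dura. Genes with paralog numbers 11 to 13 together had 10 counts in diaphragm and 10 in dura, where Hoxb13, Hoxd11 and Hoxd12 were counted in library 1P5 and in no other. Counts were confined to dura in Hoxc10, Hoxd1, Hoxd4, Hoxd11 and Hoxd12 and to diaphragm in Hoxa6, Hoxa13, Hoxb1, Hoxb9 and Hoxc12, with 8 or fewer counts in each but Hoxa6. Hoxd3 and Hoxd4 each share more than 52% of their exon length on the same strand, with each other or with the transcript Gm28230. The absence of counts in Hoxd3, and of Hoxd4 counts in diaphragm, is therefore uncertain.

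Levels between genes were compared per kb of exon. In diaphragm libraries 1 and 7, Hoxa5 had 6.16 CPM per kb, Hoxb4 3.41, Hoxa4 1.44, Hoxc4 1.07, Hoxa2 1.05, Hoxa7 0.968 and Hoxa3 0.912. In the other 5 diaphragm libraries Hoxb4 led with 2.10 CPM per kb, followed by Hoxa5 with 1.07, Hoxa4 with 0.448, Hoxd9 with 0.340 and Hoxd8 with 0.299. In dura Hoxb4 had 2.41 CPM per kb, Hoxb7 0.381 and Hoxa5 0.145, and every other Hox gene had less. The Hoxa cluster made up 57.0% of the Hox level per kb in libraries 1 and 7, 39.1% in the other diaphragm libraries and 8.9% in dura, and the Hoxb cluster 28.5%, 40.4% and 80.2%. Hoxb4 sets most of the Hoxb share.

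With Hoxb4 left out, genes in the middle of the clusters held most of the level in both tissues. Genes with numbers 4 to 8 held 73.2% of the level per kb in diaphragm and 72.3% in dura, genes 1 to 3 held 17.3% and 13.9%, and genes 9 to 13 held 9.5% and 13.8%. Without libraries 1 and 7 the diaphragm shares were 69.7% for genes 4 to 8, 14% for genes 1 to 3 and 16.3% for genes 9 to 13. The share of genes 9 to 13 ranged from 5.6% in libraries 1 and 7 to 24.2% in libraries 3, 6 and 9, and in dura from 9.2% under P6 to 19.5% under P5, where library 1P5 had 0.887 CPM per kb against a dural mean of 0.186. These shares were not tested. The summed level per kb of genes 4 to 8 was 5.30 CPM per kb in diaphragm and 0.975 CPM per kb in dura. Of the level of all Hox genes but Hoxb4, paralog number 5 held the largest share in diaphragm with 40%, and number 7 in dura with 28.9%. The dural shares rest on 391 counts over 9 libraries.

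**Figure D3:**
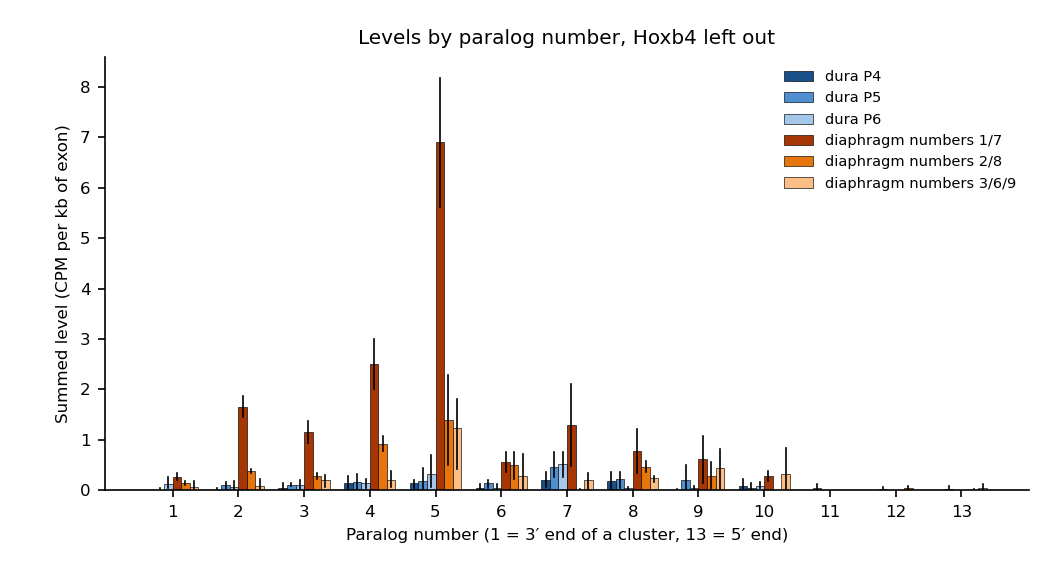
Summed level by paralog number, in CPM per kb of exon, with Hoxb4 left out, as the mean of the libraries of each dural mark (blue) and each diaphragm set (orange), with lines from the lowest to the highest library. Diaphragm libraries 1 and 7 reach a mean of 6.90 CPM per kb at number 5, and numbers 11 to 13 are close to 0 in every set.

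Genes of other cell types also differed between libraries, and 15.3% of all genes were called lower and 11.2% higher in dura. The 14 fibroblast genes summed to 21420 and 10860 CPM in diaphragm libraries 1 and 7, 906 to 1593 CPM in the other diaphragm libraries and 749 to 4569 CPM in dura, with 5 of 14 lower and none higher in dura and none at 0 in a whole tissue. Without libraries 1 and 7 the count turned to 5 higher and 3 lower in dura. The 11 endothelial genes summed to 3240 and 3078 CPM in libraries 1 and 7, 57.5 to 628 CPM in the other diaphragm libraries and 29.9 to 400 CPM in dura, with 5 of 11 lower in dura, and 1 higher and 1 lower without libraries 1 and 7. Mesothelial genes, of which none of 9 passed the filter, summed to 20.4 and 49.0 CPM in libraries 1 and 7, at most 9.28 CPM in the other diaphragm libraries and at most 6.95 CPM in dura, where Msln and Bnc1 had no count. Genes of blood progenitors summed to 255 and 137 CPM in libraries 1 and 7, 28.6 to 89.3 CPM in the other diaphragm libraries and 14.2 to 44.5 CPM in dura (2 of 6 tested lower). Skeletal muscle genes summed to 136 to 329 CPM in diaphragm and 3.63 to 14.5 CPM in dura, where Tnnc2, Mb, Myl1 and Pax7 had no count, and libraries 1 and 7, with 306 and 173 CPM, lay within the range of the other diaphragm libraries. By the calls between tissues, the mural, Schwann cell and B cell lists were mixed or leaned towards dura. Of the mural genes 1 of 9 tested was higher and 1 lower in dura (median 1.19). Of the Schwann cell genes 2 of 5 were higher and none lower (median 0.54), and of the B cell genes 2 of 4 were higher and 1 lower (median 0.61). Within diaphragm the mural sum was also highest in libraries 1 and 7, at 215.1 and 173.5 CPM against 49.2 to 104.1 CPM in the others. In dura it was 65.7 to 389.6 CPM. The part of these cells in the Hox differences was not tested.

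The fibroblast sum of the dural P4 libraries, 2611 to 4569 CPM, was higher than the 906 and 1276 CPM of diaphragm libraries 2 and 8. All 3 P4 libraries had no count of Hoxa3 or Hoxa5, whereas libraries 2 and 8 had 28 counts each of Hoxa3 and 18 and 77 of Hoxa5. The sum of the Hox genes other than Hoxb4 was 1.99 to 2.33 CPM in the P4 libraries and 6.56 and 13.7 CPM in libraries 2 and 8. Libraries 2 and 8 also differed from P4 in other ways. They had more endothelial RNA (553.7 and 628.4 CPM against 160.2 to 319.7) and less mural RNA (85.97 and 104.1 CPM against 184.0 to 389.6). Their total counts were larger, 23498989 and 23034792 against at most 16328691 under P4. The part of these in the Hox difference was not tested. Hox RNA of fibroblasts of either tissue was not measured separately.

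**Figure D4:**
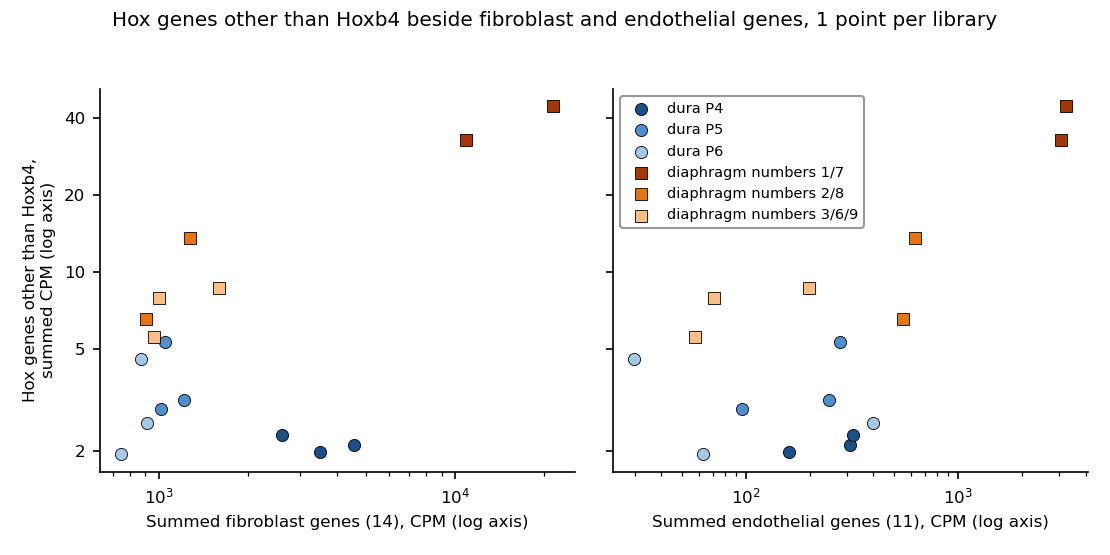
Summed CPM of the 38 Hox genes other than Hoxb4 (vertical, log axis) against the summed CPM of 14 fibroblast genes (left) and 11 endothelial genes (right, log axes), 1 point per library, circles for dura and squares for diaphragm. Libraries 1 and 7 are highest on all axes, and the P4 libraries have 2611 to 4569 CPM of fibroblast genes beside 1.99 to 2.33 CPM of Hox genes.

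The genes whose pattern over the 16 libraries was most like that of the summed Hox genes were, among 13680 genes and by Pearson's r of log2(CPM + 1), Col15a1 (0.92), Hmcn2 (0.92), Gpihbp1 (0.92), Galnt18, Clec4g, Gata4, Oit3, Icam2, Slc43a3 and Cilp (0.90). The collagen Col15a1 had between 175 and 342 CPM in libraries 1 and 7 and 2.82 to 34.1 CPM elsewhere. Clec4g and Oit3, known from liver sinusoidal endothelium, were at 176 to 184 and 99.5 to 117 CPM in libraries 1 and 7 and no higher than 14.9 and 5.96 CPM elsewhere. The points share libraries 1 and 7, which were highest in all 10 genes.

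Transcription factors that mark body position in mesenchyme differed in the same libraries. Of 15 head mesenchyme factors, 10 of 13 tested were higher in dura and none lower, with sums of 48.3 to 355 CPM in dura. In diaphragm the sums were 39.5 and 50.1 CPM in libraries 1 and 7 and 5.98 to 10.47 CPM in the others. Library 7 thus lay within the dural range. Without libraries 1 and 7, in a fit with its own filter, 14 head factors were higher in dura and none lower. Zic1, which acts in the roof of the skull and the meninges, was at 34.4 to 61.3 CPM under P4 and 7.17 to 18.1 CPM in the other dural libraries, and had no count in diaphragm. Of the trunk and limb-level factors, 3 of 8 tested were higher and 3 lower in dura. Without libraries 1 and 7 the count was 3 higher and 1 lower. Their sums were 138.4 and 102.8 CPM in libraries 1 and 7, 7.49 to 22.4 CPM in the other diaphragm libraries and 5.36 to 37.05 CPM in dura. Gata4, a factor of heart, gut and diaphragm mesenchyme, had between 31.5 and 36.3 CPM in libraries 1 and 7, 0.0457 to 3.64 CPM in the other diaphragm libraries and no count in dura. Clec4g and Oit3, named above for liver sinusoidal endothelium, were highest in the same libraries, and which cells held the Gata4 RNA was not tested. The median log2 difference of the head list was 3.54 and of the trunk list -0.56, against -0.01 over all 13136 genes.

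The TALE proteins Pbx, Meis and Pknox bind DNA together with Hox proteins and were present in both tissues. Of 9 genes, 8 were tested, with 1 higher and 3 lower in dura and a median difference of 0.00. Without libraries 1 and 7 the count turned to 3 higher and 1 lower in dura. Pbx2 was higher in dura, with 83.2 ± 7.78 CPM against 55.99 ± 8.75 CPM in diaphragm (edgeR, log2 difference 0.57 ± 0.10, adjusted p = 0.000357). Meis1, a partner of Hoxa9 in blood progenitors, had between 10.96 and 11.8 CPM in libraries 1 and 7, 0.959 to 3.32 CPM in the other diaphragm libraries and 0.605 to 3.07 CPM in dura. Meis2 had between 18.8 and 22.8 CPM in libraries 1 and 7, and no other library exceeded 2.91 CPM. The calls of Meis1 (adjusted p = 0.0169) and Meis2 (0.0266) did not hold without libraries 1 and 7 (edgeR, adjusted p = 0.254 and 0.56).

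Of 14 genes of the signals that set Hox genes in the embryo, such as retinoic acid, 9 were tested, and 4 were lower in dura and none higher, with a median difference of -1.06. The receptors Rara, Rarb and Rarg were at 37.2, 2.57 and 52.5 CPM in dura and 74.8, 10.04 and 75.9 CPM in diaphragm (edgeR, adjusted p = 8.8e-05, 0.00463 and 0.00299), and all 3 calls held without libraries 1 and 7. Cyp26b1, which degrades retinoic acid, had between 28.4 and 34.1 CPM in libraries 1 and 7, no other library exceeded 4.14 CPM, and its call was lost without them (edgeR, adjusted p = 0.808). Cdx2 and Cdx4, activators of posterior Hox genes, had no count, and Cdx1 had 1.

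Of 17 regulators of Hox chromatin, all tested, 4 were higher and 3 lower in dura, with a median difference of 0.23. Kdm6b, which removes the repressive methyl marks of Polycomb from histone H3 and is also induced by inflammatory stimuli, was at 292 ± 106 CPM in dura and 987 ± 413 CPM in diaphragm (edgeR, log2 difference -1.76 ± 0.26, adjusted p = 0.00012), and the tissues did not overlap, with 456 CPM at most in dura and 577 CPM at least in diaphragm. Cbx7 and Cbx8, Polycomb subunits, were higher in dura (edgeR, log2 difference 0.80 and 0.74, adjusted p = 0.035 and 0.0475). Kmt2a, the methyltransferase that maintains active Hox genes, had 38.4 and 38.7 CPM, and Ezh2, which writes the Polycomb mark, 15.1 and 18.1 CPM, and neither passed the test (edgeR, adjusted p = 0.957 and 0.591). Of the noncoding transcripts of the clusters none passed the filter. Hotairm1, at the 3′ end of the Hoxa cluster, had 53 counts in dura and 165 in diaphragm, and Hotair had none.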

How the data were processed

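RNA was measured in 24 samples, 9 of dura and 15 of diaphragm. Tools listed in the submitters' processing notes are featureCounts, STAR 2.4.0j and DESeq2 1.20.0, with the build GRCm38; which of them made the table is not stated there. The authors deposited a table of counts per gene. Its name speaks of normalised values, but all are whole and column totals differ, and they were taken as raw. The kit was unstranded, per the labels' protocols. Its columns match no subset of the labels and were grouped by tissue only. Diaphragm columns of 1 number differed by little more than sampling noise (chi-square over degrees of freedom 1.008 to 1.169 in 6 pairs). They were summed and counted as 1 sample. In 108 pairs of columns from different libraries of the same tissue, dural pairs included, the value was at least 10.559. Ensembl identifiers gave symbols by a lookup table, and positions and exon lengths came from the GENCODE annotation of GRCm38, promoters from RefSeq (GRCm38.p6).

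Genes were filtered with filterByExpr, scaled with TMM factors and tested over the whole table with edgeR 4.0.16 (R 4.3.3), quasi-likelihood, two-sided, Benjamini-Hochberg adjustment, threshold 0.05. CPM are counts per 1000000. Alternatives were other size factors, no filter, limma-voom (limma 3.58.1), DESeq2 1.42.0, left-out libraries and a block on dural number. The tissue fit with the filter was also run on simulated data, which does not cover the fits without the filter. Members, lists and alternatives were chosen with earlier results of these data known. Hox genes with at least 10 counts in a library were named with values, and from other lists up to 4 genes with the highest mean and those called or standing out, the latter chosen after their values were seen. The 10 genes most like the Hox sum were taken from genes with at least 20 counts in 3 libraries. Comparisons of the labelled subsets were not run, and values of a few genes are not reported here.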

Additional observations from a re-analysis of the deposited data

Results flagged for a closer look

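In 41 sets of values, each a Hox gene or the Hox sum in the dural or in the diaphragm libraries, 15 had 1 library far from the rest of its tissue, by a rule that chance meets in about 1 of 20 sets. Many values here are 0, so that a few counts in 1 library suffice. In dura these were Hoxa2 in 1P6 (0.3349 CPM, 4 counts), Hoxa7 in 1P4 (0.1735 CPM, 2 counts), Hoxb2 in 1P5 (0.2538 CPM, 3 counts), Hoxc6 in 4P4 (0.2769 CPM, 5 counts), Hoxc8 in 1P5 (0.2538 CPM, 3 counts) and Hoxd9 in 1P5 (1.015 CPM, 12 counts). Library 1P5 accounts for 3 of these 6.

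In diaphragm, library 7 was far above the others in Hoxa2 (2.87 CPM, 78 counts), Hoxa7 (4.341 CPM, 118 counts) and Hoxb7 (0.9198 CPM, 25 counts). Library 1 was far above in Hoxb2 (3.36 CPM, 74 counts), Hoxc8 (0.8626 CPM, 19 counts) and Hoxd8 (2.497 CPM, 55 counts). Outside these, Hoxa6 stood out in library 3 (0.5981 CPM, 16 counts), Hoxc6 in library 8 (1.502 CPM, 33 counts) and Hoxd10 in library 6 (1.525 CPM, 15 counts). Libraries 1 and 7, which had the most fibroblast and endothelial RNA, each stood out in 3 genes, and none of these genes was shared. Where a library had been read in repeat runs, all 62 pairs of a Hox gene and a library with at least 10 counts were counted in both runs.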

How the results depend on the processing

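Depth limits most Hox genes, since only 2 passed the filter. The number called between tissues was 1, and 1 in each of the 16 fits that left out a library. It was 4 without the filter and 0 with dural libraries summed per number. It was 2 without the P4 libraries (19% of all genes called), and 2 without the filter and without diaphragm libraries 1 and 7. Each of these fits tested more genes than the 13136 of the reported fit, and all but the first had fewer values per gene. Hoxb4, dura minus diaphragm, changed sign with library totals (0.063), without P4 libraries (0.185), without libraries 1 and 7 (0.195), without the filter and these libraries (0.206) and over single left-out libraries (-0.156 to 0.172), never near the threshold (lowest adjusted p of the last 0.659). Left-out libraries gave -4.98 to -3.55 for Hoxa5 (adjusted p 0.00311 to 0.0203), and without the filter -6.59 to -5.54 for Hoxa3, -3.37 to -2.65 for Hoxa4 and -6.12 to -3.93 for Hoxa7 (highest adjusted p 0.0474). The number called between dural marks was 1, and it was 0 with library totals, 0 without the filter and 0 to 1 over single left-out libraries; the cause was not tested. Hoxb4, P6 minus P4, lay between 0.84 and 1.11 in these. Of the 9 pairs of same-numbered dural libraries, 4 had deviations correlated over 0.1 (r -0.005 to 0.171, and -0.176 to 0.132 in 18 other pairs), and 8 of 9 libraries correlated best with their own number, a hint from the data only, so the numbers were not taken as pairs. With a replicate block on the number, 4676 in place of 3943 genes and 1 Hox gene, Hoxb4, were called between marks (0.96, adjusted p = 0.0369). Over all genes, 3472 were called between tissues, 1259 with dural libraries summed and 2143 without P5. With library totals 2350 were higher and 1501 lower in dura, against 1465 and 2007, and the median of all genes moved from -0.01 to 0.12. Hoxa5 kept its direction in all fits of dura against diaphragm that were run. Hoxa3, Hoxa4 and Hoxa7 were fitted only without the filter, with 1 library or libraries 1 and 7 left out, and with dural libraries summed, and kept theirs in these.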
